A study of Mus with 4 samples.

Results

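Claudins, cadherins, desmosome components and gap junction connexins were followed in the mouse prostate cancer line PPS-ICBR (strain C57Bl6) after an overnight culture with 5 µM vorinostat dissolved in DMSO (2 arrays) or with the solvent, 5 µL of DMSO per 10 mL (2 arrays). The cells were seeded at 60% confluency in both groups. Vorinostat inhibits histone deacetylases, the enzymes that remove acetyl groups from histones and other proteins. The members were chosen by name: every probe set whose single gene symbol belongs to the claudins (Cldn), the cadherins named Cdh, the desmogleins and desmocollins (Dsg, Dsc), the plakophilins (Pkp), the ZO proteins (Tjp) or the connexins (Gja, Gjb, Gjc), or is Ocln, Dsp, Jup, Cgn, F11r, Epcam, Marveld2 or Marveld3. This gave 135 probe sets of 76 genes, out of 45037 probe sets and 18193 genes with a single symbol. Separate cultures are not stated for the replicate arrays, and the p-values therefore reflect array-to-array spread that may be technical.

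Epithelial cells are held together by 4 kinds of contact. Tight junctions seal the space between cells through claudins and occludin, which are tied to the actin cytoskeleton by ZO proteins and cingulin. Adherens junctions join cells through classical cadherins such as E-cadherin (Cdh1), whose cytoplasmic tails bind catenins. Desmosomes link the keratin filaments of neighbouring cells through desmogleins and desmocollins, with plakoglobin, plakophilins and desmoplakin on the cytoplasmic side, and gap junctions are channels of connexins that pass ions and small molecules between cells.

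The labelled cell type was checked against marker genes. The luminal keratins Krt8 (11.11 and 11.40 in vorinostat, 12.25 and 12.36 in DMSO) and Krt18 (11.37 and 11.48 in vorinostat, 11.51 and 11.48 in DMSO) and the prostate transcription factor Hoxb13 (8.75 and 8.82 in vorinostat, 8.24 and 8.24 in DMSO) lay well above background in log2 units, whereas the secretory gene Pbsn was near background in both groups. Krt8 fell and Hoxb13 rose, and the summed linear level of the 6 luminal markers was 5722 and 6428 in vorinostat and 8486 and 8809 in DMSO. Krt8 carried that difference, and the median log2 change of the list was -0.04. Of 7 general epithelial markers, 5 of them members (Cdh1, Epcam, Cldn3, Cldn4 and Cldn7), 2 rose and 2 fell, among them Krt19 (1.10) and Krt7 (-0.57). Of 9 fibroblast or mesenchymal markers, 8 were above background, among them Vim (13.47 and 13.44 in vorinostat, 13.05 and 13.06 in DMSO), and 3 rose and 3 fell with vorinostat. Among the falls were Pdgfrb (-2.49) and Acta2 (-1.61), and among the rises Pdgfra (1.54). Vim and Col1a2 make up much of the list's summed level. Vim was among the rises (0.40, limma adjusted p = 0.0134), and Col1a2 did not pass (-0.21). The summed linear level of the 9 was 20800 and 22273 in vorinostat and 21619 and 21431 in DMSO. That of 4 basal markers, none of which passed, was 101 and 108 in vorinostat and 97.5 and 92.7 in DMSO. The samples thus held both epithelial and mesenchymal transcripts, and whether the same cells carried both cannot be told from bulk arrays. The part of the luminal and mesenchymal changes in the results was not tested. In a bulk sample, fewer cells of a type and less RNA per cell cannot be told apart. Of 6 endothelial markers, Pecam1, Tek, Tie1 and Emcn were near background in both groups and none passed. Of 5 immune markers measured, Ptprc, Itgam and Adgre1 were near background in both groups, and Cd3e was the 1 that rose, by 0.43 (limma adjusted p = 0.0158).

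Vorinostat was set against DMSO to ask which junction genes differed between treated and solvent-treated cells. The claudins Cldn23 and Cldn1, cingulin (Cgn), plakophilin 2 (Pkp2) and desmoglein 2 (Dsg2) rose at least 2-fold, and connexin 43 (Gja1), connexin 45 (Gjc1) and the cadherin Cdh26 fell at least 2-fold. These 8 are 8 of 76 genes, against 11.9% of all genes with a call of that size. E-cadherin did not pass the test, and N-cadherin (Cdh2) was near background in both groups. Of the 76 genes, each represented by its brightest probe set, 12 rose and 8 fell and 56 did not pass an adjusted p of 0.05 by limma, with Benjamini-Hochberg adjustment over all probe sets. That is 26.3% of the members, against 39.9% of all genes. In all genes, 20.9% rose and 18.9% fell, against 15.8% and 10.5% of the members. The median log2 change was 0.06 over the members and 0.03 over all genes. The arrays of the groups did not overlap in 43 of the 76 genes (56.6%), against 68.9% of all genes.

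Many of the members gave little signal on these arrays. A probe set was called near background in a group by its distance from a bacterial control. On each array it had to lie within 1 log2 unit of the highest probe set for that control. The control was taken not to have been spiked in, which the labels do not state. This put the limit at 3.63 to 3.78 on the vorinostat arrays and at 3.54 to 3.75 on the DMSO arrays. By that limit 33 of the 76 genes were near background in both groups, against 25.6% of all genes. They comprised 10 of 24 claudins, 10 of 21 cadherins, 9 of 11 connexins, 3 of 6 desmosomal cadherins and 1 of 8 other tight junction and adhesion genes (the tricellulin gene Marveld2), and none of the 6 desmosomal plaque genes. Of the 20 calls, 3 concerned such genes, namely Cdh9 (0.44), Gja3 (0.30) and Cdh8 (-0.41). No fold is given for them, and none of the 3 passed in any of the fits that left out 1 array.

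**Figure D1:**
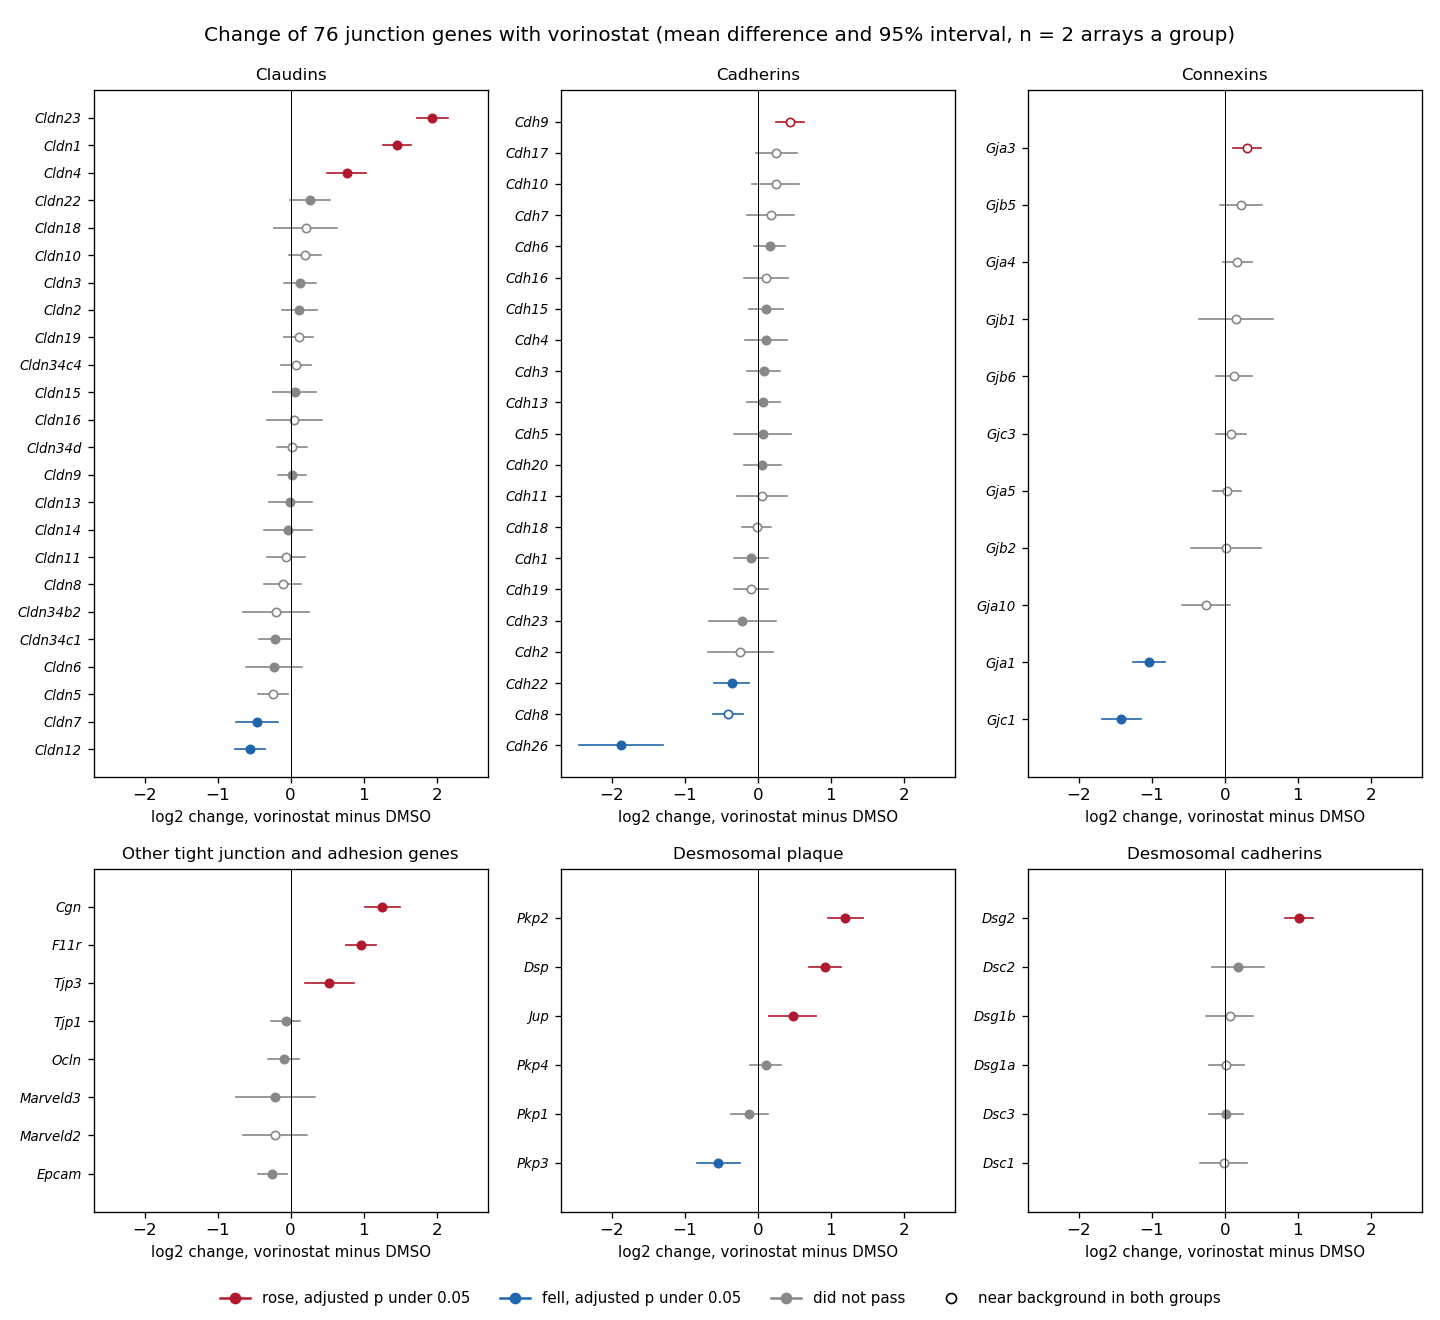
Log2 change of the 76 member genes (x axis, vorinostat minus DMSO) with its 95% interval, by family (panels), each gene shown by its brightest probe set. Red points rose, blue points fell, grey points did not pass, and open points were near background in both groups. Most members sit near 0, and the changes past 1 in size are those of Cldn23, Cldn1, Cgn, Pkp2 and Dsg2 above 0 and Gja1, Gjc1 and Cdh26 below it.

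The counts were lower without any 1 of the arrays and depended on the scaling. Without vorinostat 1, 8 members rose and 3 fell. Without vorinostat 2 the numbers were 8 and 5, without DMSO 1 they were 7 and 5, and without DMSO 2 they were 9 and 4. Calls over all genes were also fewer in these fits, at 23.5%, 25.8%, 23.6% and 25.2% in that order, against 39.9% with all arrays. Of the 20 calls, 10 held in all 4 of these fits (7 rises and 3 falls). With each array scaled on 7 reference genes, which raised every log2 change by 0.37, 52 members rose and 3 fell, and 73.6% of all genes were called. Small falls and small rises are therefore relative to the deposited scale. Without Gusb and Polr2a, the 2 reference genes that fell, the shift was 0.08, and 12 members rose and 6 fell.

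Among the 24 claudins measured, 3 rose, 2 fell and 19 did not pass, with a median log2 change of 0.03 (20.8% called, against 39.9% of all genes). Cldn23 had log2 values of 7.24 and 7.19 on the vorinostat arrays, against 5.33 and 5.23 on the DMSO arrays. Its difference of 1.94 (SE 0.08, limma adjusted p = 0.00020), or 3.84-fold, was the highest of the members. Both vorinostat arrays lay above both DMSO arrays, with a gap far wider than that between arrays of a group.

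Cldn1, a sealing claudin that the barrier of mouse skin requires, had log2 values of 6.75 and 6.75 with vorinostat and 5.30 and 5.29 with DMSO. It rose by 1.46 (SE 0.08, limma adjusted p = 0.000274), or 2.75-fold, and the arrays of a group were nearly equal. A dimmer probe set read 5.85 and 5.69 with vorinostat and 4.73 and 4.46 with DMSO, and it rose by 1.17. The remaining 2 probe sets of Cldn1 were near background in both groups and did not pass (0.15 and 0.01). Cldn1 and Cldn23 passed in every alternative run, with Cldn1 at 0.70 in the mean over its probe sets.

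Cldn4, a sealing claudin of simple epithelia, was at 9.30 and 9.11 with vorinostat and at 8.36 and 8.52 with DMSO. The groups did not overlap, and the rise of 0.77 (SE 0.11, limma adjusted p = 0.00433), or 1.70-fold, no longer passed without DMSO 1 (0.69, adjusted p = 0.0575). Its neighbour in the RefSeq gene order (GRCm38.p6), Cldn3, did not pass: its brightest probe set was at 9.36 and 9.42 with vorinostat and 9.32 and 9.21 with DMSO. The difference of 0.12 had a 95% interval of -0.09 to 0.34, and the 3 dimmer probe sets of Cldn3 gave 0.19, 0.10 and 0.10. Under reference gene scaling Cldn3 passed as a rise (0.49), and with 5 reference genes it did not pass (0.20).

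The falls among the claudins were smaller. Cldn12, a claudin linked to the passage of calcium between cells, was at 9.13 and 9.21 with vorinostat and 9.74 and 9.73 with DMSO, a fall of 0.56 on the log2 scale (SE 0.08, limma adjusted p = 0.00463). A second probe set fell by 0.65. The change of Cldn12 was -0.60 to -0.52 over the 4 fits without 1 array, and in most of them it lay close to the threshold. Its call was lost under reference gene scaling (-0.19). With 5 reference genes the call of Cldn12 was kept (-0.48). Cldn7 was at 7.03 and 7.30 with vorinostat and 7.62 and 7.63 with DMSO. Its fall of 0.46 (SE 0.11, limma adjusted p = 0.031) is a weak call, since it did not pass without vorinostat 1 (-0.32), without DMSO 1 (-0.46), without DMSO 2 (-0.46), with reference gene scaling (-0.09), with 5 reference genes (-0.38) or with a replicate block (adjusted p = 0.0609). Cldn5, the main claudin of endothelium, was near background in both groups (3.17 and 3.22 with vorinostat, 3.41 and 3.47 with DMSO) and did not pass (adjusted p = 0.0726 by limma).

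Of the 8 other tight junction and adhesion genes, 3 rose and 5 did not pass, and the share called (37.5%) was near that of all genes (39.9%). Cingulin, the plaque protein that ties ZO proteins to actomyosin, was at 7.37 and 7.24 with vorinostat and 6.11 and 5.99 with DMSO. Cgn rose by 1.26 (SE 0.09, limma adjusted p = 0.000571), or 2.39-fold, without overlap between the groups, whereas a second, dimmer probe set did not pass (0.07). F11r, which encodes the immunoglobulin-type adhesion molecule JAM-A, was at 9.44 and 9.49 with vorinostat and 8.48 and 8.53 with DMSO. It rose by 0.96 (SE 0.08, limma adjusted p = 0.000778), or 1.95-fold, and again a dimmer probe set did not follow (-0.02). Cgn and F11r passed in every alternative run, at 0.66 and 0.47 in the mean over their probe sets.

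Both ZO genes measured were read on 1 probe set each, and the difference between them was not tested. Tjp3 (ZO-3) was at 4.41 and 4.49 with vorinostat and 3.75 and 4.09 with DMSO, near the background limit, and its rise of 0.53 (SE 0.13, limma adjusted p = 0.0309) did not pass without vorinostat 1 (0.57), vorinostat 2 (0.49) or DMSO 1 (0.36). Tjp1 (ZO-1), the central scaffold of the tight junction, was at 9.07 and 9.11 with vorinostat and 9.20 and 9.12 with DMSO. Its difference of -0.07 had a 95% interval of -0.27 to 0.13 and turned to 0.30, past the threshold, under reference gene scaling. With 5 reference genes the difference was 0.011 and did not pass. The occludin gene Ocln was at 4.56 and 4.43 with vorinostat and 4.596 and 4.586 with DMSO, with an interval of -0.31 to 0.12. A second probe set of Ocln had a change of 0.31, and neither passed.

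Epcam, an adhesion molecule of epithelia that binds claudins, gave readings that depended on the probe set. The brighter was at 7.68 and 7.65 with vorinostat and 7.89 and 7.93 with DMSO, and its change of -0.25 did not pass (SE 0.08, limma adjusted p = 0.0635). The dimmer, whose suffix marks probes that may cross-hybridise, was at 6.48 and 6.54 with vorinostat and 5.99 and 6.21 with DMSO, and it rose by 0.41 (SE 0.10, limma adjusted p = 0.0326). Epcam was the 1 member gene whose called probe set was not its brightest.

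**Figure D2:**
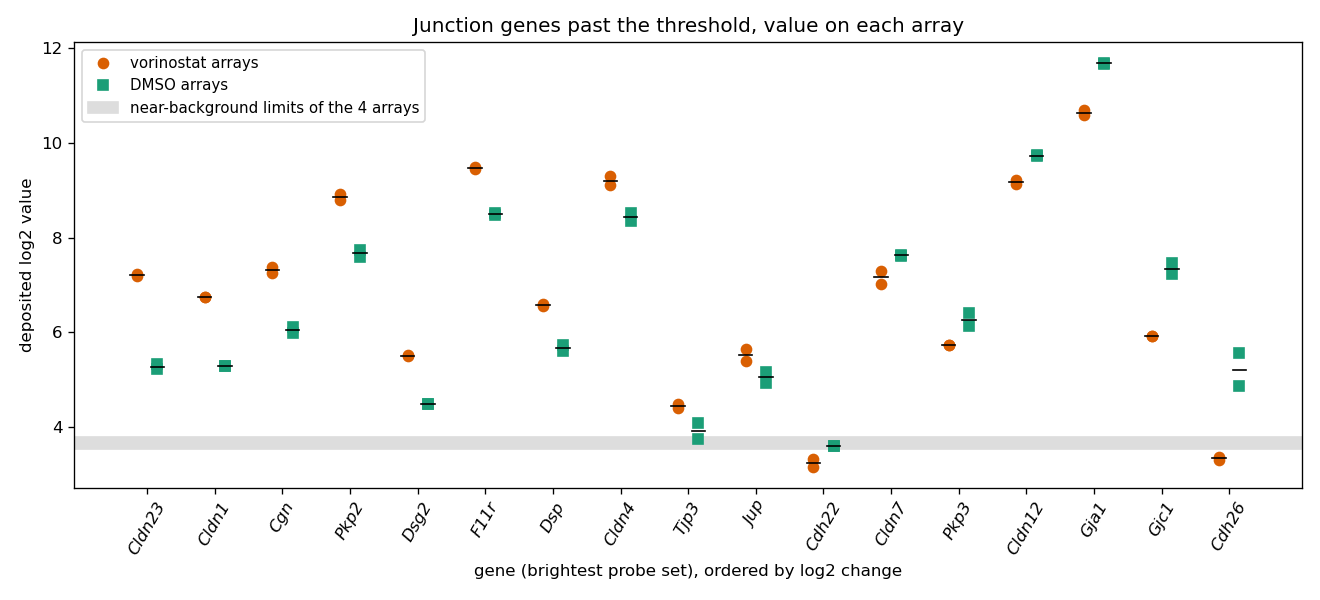
Deposited log2 values (y axis) on each array for the 17 called genes above background in at least 1 group, ordered by log2 change (x axis). Circles are the vorinostat arrays, squares the DMSO arrays and short lines the group means, and the grey band spans the near-background limits. In each of these genes the vorinostat and DMSO arrays do not overlap, and the spread between arrays of a group is widest for Cdh26 in DMSO.

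Of the 21 cadherins named Cdh, 1 rose, 3 fell and 17 did not pass (19% called, against 39.9% of all genes), and 2 of these 4 calls concerned genes near background in both groups. Cdh26, a cadherin described in human gastrointestinal epithelium, was at 3.30 and 3.37 with vorinostat and 5.55 and 4.86 with DMSO. Its measured log2 change was -1.87 (SE 0.23, limma adjusted p = 0.0027), with an interval of -2.45 to -1.29. Because its vorinostat arrays lay near background, the fold is given as a bound only. With the vorinostat values raised to the near-background limits, the group means differed 2.84-fold. That bound does not allow for the spread of the DMSO arrays. The DMSO arrays differed by more than those of any other called gene in the plot of array values, and without vorinostat 1 the change of -1.83 missed the threshold (adjusted p = 0.0531). Cdh22 was at 3.15 and 3.32 with vorinostat and 3.59 and 3.59 with DMSO, with the vorinostat arrays near background and too little distance from it for a fold. DMSO 1 lay just above its limit (3.54) and DMSO 2 under its own (3.75), so that Cdh22 was close to background in both groups. Its change of -0.36 did not pass in any of the 4 fits without 1 array and turned to 0.0091 under reference gene scaling.

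The classical cadherins of epithelium and the lipid-anchored Cdh13 did not pass. Cdh1, the E-cadherin gene, was at 7.76 and 7.87 with vorinostat and 7.97 and 7.84 with DMSO, so that the groups overlapped. The difference of -0.09 (SE 0.09, limma adjusted p = 0.538) had a 95% interval of -0.32 to 0.15. It turned to 0.28 and passed under reference gene scaling, and with 5 reference genes it was -0.0084 and did not pass. Cdh3 (P-cadherin), its neighbour in the gene order, was at 5.55 and 5.42 with vorinostat and 5.35 and 5.45 with DMSO, with an interval of -0.15 to 0.31. Cdh13 (T-cadherin), which lacks a cytoplasmic tail, was at 7.65 and 7.76 with vorinostat and 7.68 and 7.58 with DMSO, with an interval of -0.15 to 0.30. On these brightest probe sets the arrays of the groups overlapped. A second probe set of Cdh13, at 7.46 and 7.47 with vorinostat and 7.25 and 7.28 with DMSO, did not overlap and did not pass (0.21, adjusted p = 0.105 by limma). Cdh3 (0.45) and Cdh13 (0.44) passed as rises under reference gene scaling, and neither passed with 5 reference genes (0.16 and 0.16).

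The cadherins of mesenchymal cells were dim. Cdh2 (N-cadherin) was at 2.53 and 2.96 with vorinostat and 2.84 and 3.12 with DMSO, and Cdh11 at 2.28 and 1.91 with vorinostat and 2.03 and 2.05 with DMSO. Both were near background in both groups on each of their 2 probe sets. Cdh5 (VE-cadherin), which marks endothelium, was at 4.19 and 4.59 with vorinostat and 4.26 and 4.39 with DMSO on its brighter probe set and near background on the other, and neither passed. Under reference gene scaling Cdh5 (0.43) and Cdh11 (0.43) passed as rises, and with 5 reference genes neither passed (0.15 and 0.14). Vim was thus bright on arrays where Cdh2 and Cdh11 were near background.

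Of the 6 desmosomal cadherins, 1 rose and 5 did not pass (16.7% called, against 39.9% of all genes). Dsg2, the desmoglein of simple epithelia, was at 5.52 and 5.49 with vorinostat and 4.49 and 4.49 with DMSO. It rose by 1.01 (SE 0.08, limma adjusted p = 0.000613), or 2.02-fold, with arrays of a group nearly equal. Of its 6 probe sets 3 rose, by 1.01, 0.54 and 0.38, the last of them near background in both groups, and the other 3 lay between -0.04 and 0.05. Dsc2, the desmocollin that pairs with it in simple epithelia, was at 3.68 and 4.004 with vorinostat and 3.56 and 3.76 with DMSO. These values lay close to the background limits, and the groups overlapped, with an interval of -0.18 to 0.53. Dsc2 passed as a rise under reference gene scaling (0.55) and did not pass with 5 reference genes (0.26). Its second probe set, near background in both groups, had a change of 0.31 and did not pass.

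Of the 6 desmosomal plaque genes, 3 rose, 1 fell and 2 did not pass (66.7% called, against 39.9% of all genes). Of these calls, those of Jup and Pkp3 lay nearest the threshold and were not kept in every fit without 1 array. None of the 6 genes was near background in both groups, against 25.6% of all genes. Among the 11618 genes whose brightest probe set lay above the median level, 65.8% were called in a fit of such probe sets alone. The share of the plaque genes was thus near that of brighter genes. Pkp2, the plakophilin of simple epithelia and heart, was at 8.93 and 8.81 with vorinostat and 7.74 and 7.60 with DMSO. It rose by 1.20 (SE 0.10, limma adjusted p = 0.000707), or 2.29-fold, and a second probe set rose by 1.25. Both vorinostat arrays lay above both DMSO arrays on each. Its 2 dimmest probe sets, at 0.39 and 0.0036, did not pass.

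Dsp, which encodes desmoplakin, the link from the plaque to keratin filaments, was at 6.60 and 6.55 with vorinostat and 5.72 and 5.60 with DMSO. It rose by 0.92 (SE 0.09, limma adjusted p = 0.0012), or 1.89-fold, and a second probe set rose by 0.90 with a wider spread (6.11 and 6.37 with vorinostat, 5.59 and 5.09 with DMSO). Dsg2, Pkp2 and Dsp passed in every alternative run, at 0.33, 0.71 and 0.68 in the mean over their probe sets, which is under 2-fold for each. Jup, the plakoglobin gene, whose product serves desmosomes and adherens junctions alike, was at 5.65 and 5.40 with vorinostat and 4.94 and 5.16 with DMSO. Its rise of 0.48 (SE 0.13, limma adjusted p = 0.0411) did not pass in any fit without 1 array (0.35 without vorinostat 1, 0.60 without vorinostat 2, 0.37 without DMSO 1, 0.59 without DMSO 2) or with a replicate block (adjusted p = 0.115).

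The plakophilins thus differed among themselves. Pkp3 was at 5.73 and 5.74 with vorinostat and 6.13 and 6.41 with DMSO, a fall of 0.54 on the log2 scale (SE 0.12, limma adjusted p = 0.02), and its second probe set fell by 0.34. The call was lost without vorinostat 1 (-0.54), vorinostat 2 (-0.54) or DMSO 2 (-0.40), and under reference gene scaling (-0.17). With 5 reference genes the call of Pkp3 was kept (-0.46). Pkp1 (-0.12) and Pkp4 (0.11) did not pass, with intervals of -0.37 to 0.13 and -0.11 to 0.32.

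**Figure D3:**
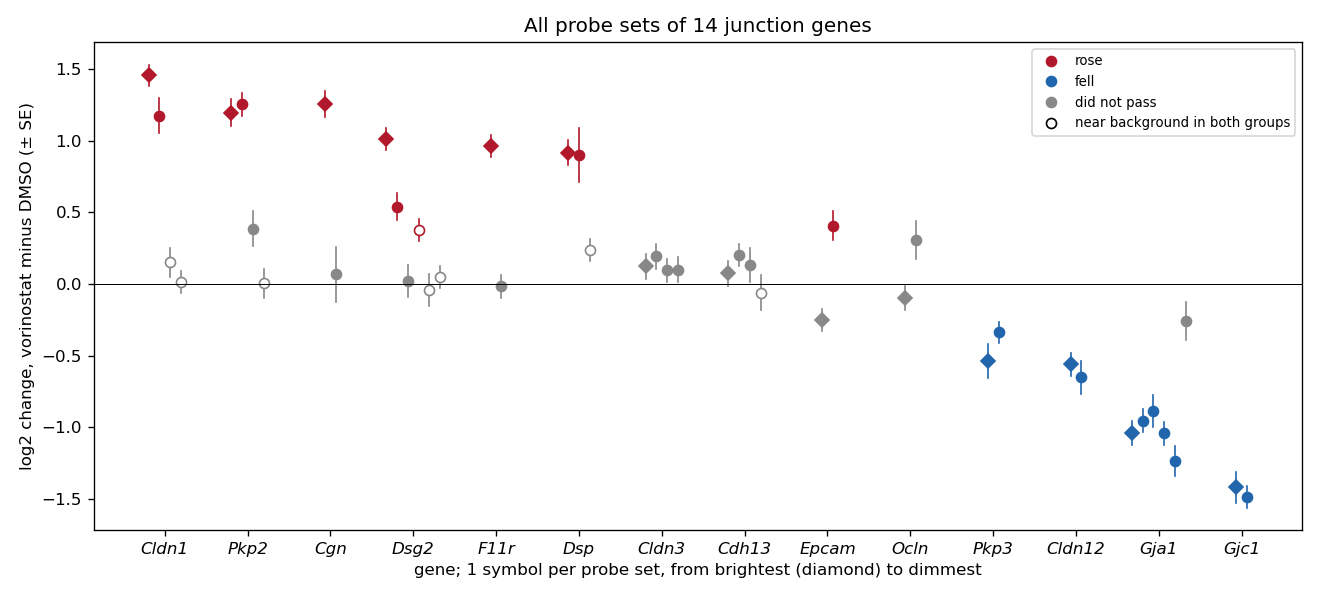
Log2 change (y axis, vorinostat minus DMSO, bars ± SE) of each probe set of selected member genes with over 1 probe set (x axis), the brightest as a diamond. Open symbols are near background in both groups. The probe sets that passed point the same way within each gene, and those that did not pass lie between -0.26 and 0.39. In Epcam the brighter probe set is at -0.25 and the dimmer, which passed, at 0.41.

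Of the 11 connexins, 2 fell, 1 (Gja3, near background) rose and 8 did not pass (27.3% called, against 39.9% of all genes), and Gja1 and Gjc1 were the 2 above background. Gja1, the widely expressed connexin 43, was at 10.58 and 10.70 with vorinostat and 11.70 and 11.66 with DMSO. It fell by 1.04 on the log2 scale (SE 0.08, limma adjusted p = 0.000758), which is 2.06-fold lower. Of its 6 probe sets 5 fell, with changes from -1.24 to -0.89, and the dimmest had a change of -0.26 and did not pass.

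Gjc1, connexin 45, was at 5.93 and 5.93 with vorinostat and 7.47 and 7.23 with DMSO, and it fell by 1.42 (SE 0.11, limma adjusted p = 0.000588), or 2.68-fold. Its second probe set fell by 1.49, with 5.84 and 5.84 in vorinostat and 7.34 and 7.31 in DMSO. Gja1 and Gjc1 passed in every alternative run, reference gene scaling included (-0.67 and -1.05). Gjb2, connexin 26, a connexin of epithelia, was near background in both groups, at 2.88 and 3.25 with vorinostat and 2.84 and 3.26 with DMSO. A fall in it could not be judged at this signal. Its change of 0.02 did not pass, with an interval of -0.46 to 0.50.

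Of the 36 members with over 1 probe set, 14 had probe sets on both sides of 0. In 8 members several probe sets were called, in each of them in the same direction. Over all 135 member probe sets 18 rose and 15 fell (24.4%), against 32.2% of all 45037 probe sets, of which 16.5% rose and 15.7% fell. Without vorinostat 1, 10 rose and 8 fell, without vorinostat 2, 10 rose and 10 fell, and without DMSO 1, 11 rose and 9 fell. A call of at least 2-fold was made for 13 of the 135, against 8.69% of all probe sets. The groups did not overlap in 76 of them, against 62.8% of all, and 66 were near background in both groups, against 37.7% of all.

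**Figure D4:**
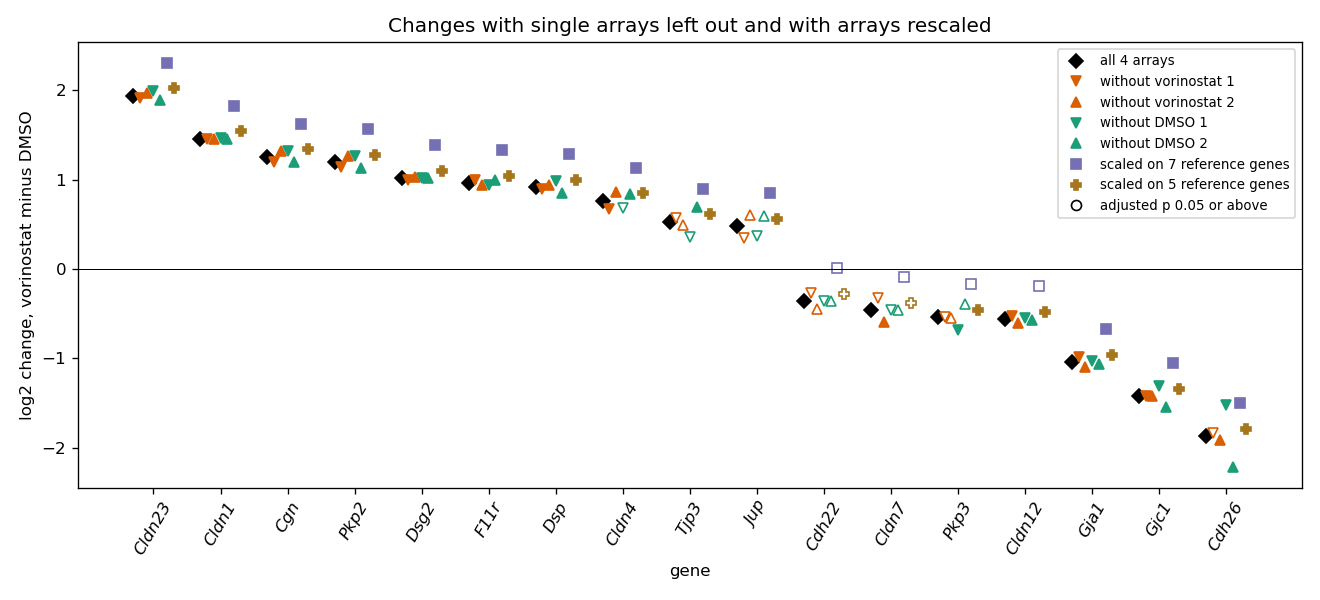
Log2 change (y axis) of the 17 called genes above background (x axis) with all 4 arrays, with each array left out in turn and with arrays scaled on 7 or on 5 reference genes. Filled symbols have an adjusted p under 0.05 and open ones do not. The rises from Cldn23 to Dsp stay filled throughout, as do the falls of Gja1 and Gjc1, while Cldn4, Tjp3, Jup, Cdh22, Cldn7, Pkp3, Cldn12 and Cdh26 have open symbols.

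Partners of these proteins were read from a list of 45 genes, of which 43 were measured: 13 rose and 8 fell (48.8% called, against 39.9% of all genes), with a median log2 change of 0.03. Of the 43, 7 were near background in both groups, against 25.6% of all genes. In the fit of probe sets above the median level, 13 of 35 partners rose and 10 fell, and 65.8% of all genes in that fit were called. The partners were thus called about as often as other brighter genes. The scaffold gene Magi3 was at 9.77 and 9.61 with vorinostat and 8.33 and 8.31 with DMSO, a rise of 1.37 (SE 0.09, limma adjusted p = 0.000441). Ppl, whose product periplakin binds keratin filaments at desmosomes, rose by 1.27 (SE 0.09), from arrays at 6.34 and 6.43 in vorinostat against 5.19 and 5.04 in DMSO. The alpha-catenin relative Ctnnal1 rose by 0.97 (SE 0.08). These 3 passed in every alternative run.

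Falls among the partners were led by Panx1, a pannexin, which forms channels related to those of connexins. It was at 5.81 and 5.78 with vorinostat and 6.94 and 6.75 with DMSO, a fall of 1.05 (SE 0.10, limma adjusted p = 0.00106). Mpdz, a scaffold with many PDZ domains that binds claudins, fell by 0.92 (SE 0.09), and Marveld1 by 0.80 (SE 0.11), the last not past the threshold without DMSO 2 (-0.74). In the mean over their probe sets these falls were smaller, at -0.44 for Mpdz and -0.47 for Marveld1. Of the other catenins, named here after their values were seen, Ctnna1 rose by 0.47 and Ctnnb1 by 0.32, Ctnnd1 did not pass (0.03), and Ctnna2, Ctnna3 and Ctnnd2 were near background in both groups. Ctnnb1 did not pass in any of the 4 fits without 1 array (0.30 to 0.34), and Ctnna1 did not without vorinostat 1, vorinostat 2 or DMSO 2 (0.40 to 0.54 over the 4 fits). Without vorinostat 1, 6 partners rose. Without vorinostat 1, DMSO 1 or DMSO 2, 4 fell, and without vorinostat 2, 5 fell. Reference gene scaling gave 25 higher and 4 lower.

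**Figure D5:**
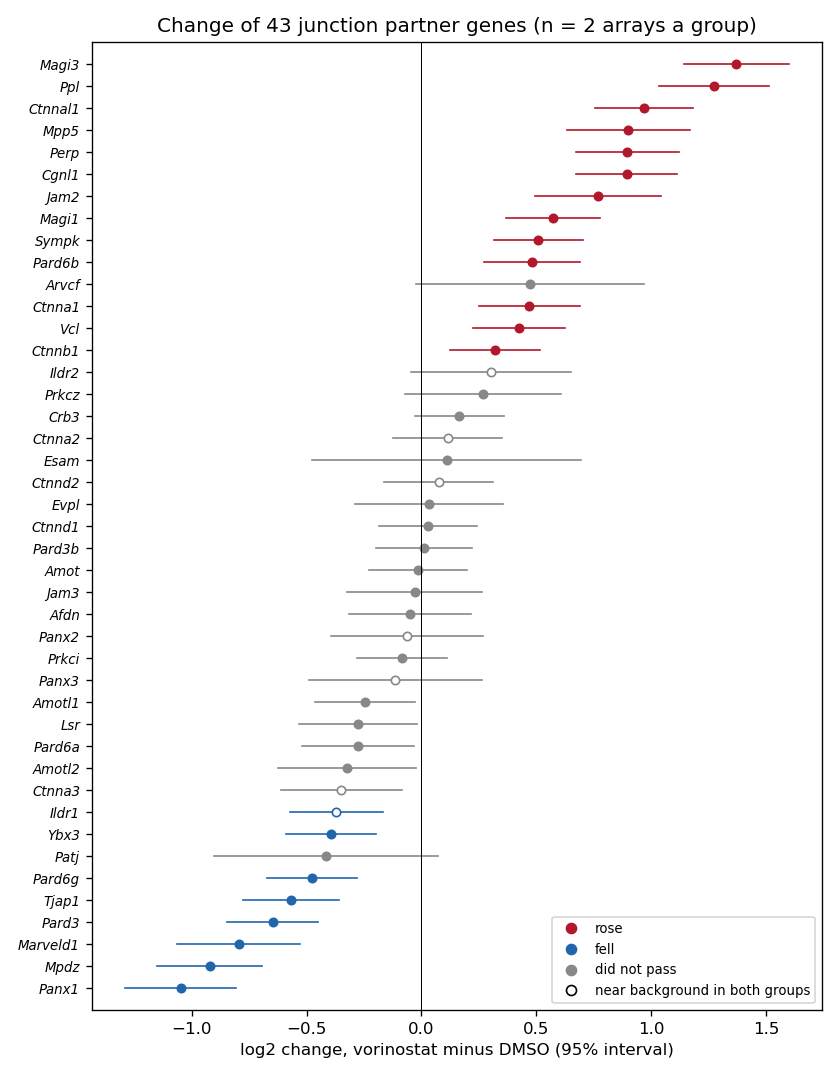
Log2 change (x axis, vorinostat minus DMSO) with its 95% interval for the 43 measured partner genes (y axis), coloured by call, with open points near background in both groups. Magi3 and Ppl lie highest, above 1, and Panx1 lowest, at -1.05.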

How the data were processed

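The values are log2 values that the authors deposited, 1 per probe set and array, made with RMA and the Transcriptome Analysis Console per the submitters' processing notes, with no version. RMA equalises the arrays' distributions, so a shift common to the whole transcriptome is removed. Depth does not apply to arrays, and their number (2 per group) limits the precision. The table held 45101 probe sets, and 64 controls were left out of the test. The platform annotation gave 34945 probe sets a single symbol, 932 several and 9160 none, and all 76 member genes matched the RefSeq table (GRCm38.p6) with 0 symbols changed.

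Groups were compared with limma 3.58.1 in R 4.3.3 (lmFit and eBayes with a prior of 3.26 degrees of freedom). Its two-sided p-values were adjusted by Benjamini and Hochberg's method over 45037 probe sets and called at 0.05, with no filter and no further normalization. Changes are vorinostat minus DMSO, with the moderated SE and 95% interval, and folds are powers of 2 of them. The brightest probe set stands for a gene. Named genes were up to 4 rises and 4 falls per family with the brighter group above background, and a set named in any case. For partners they were the 3 largest rises and falls. The code was run on simulated data in which few probe sets changed, so that run does not measure the error of the calls made here. Members and lists were chosen with earlier results of these data known. Alternatives left out single arrays, added a replicate block or an intensity trend, rescaled the arrays, dropped dim probe sets or changed the probe set that stands for a gene. Listed genes without a single-symbol probe set are not analysed here.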

Additional observations from a re-analysis of the deposited data

How the results depend on the processing

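Leaving out 1 array at a time gave 7 to 9 member genes higher and 3 to 5 lower (12 and 8 with all arrays), 10 to 12 member probe sets higher and 8 to 10 lower (18 and 15), and 6 to 10 partner genes higher and 4 to 5 lower (13 and 8). Over all genes 23.5% to 25.8% were called in these fits, against 39.9% with all arrays. Such fits have fewer residual degrees of freedom, and the lone array of a group is assumed to vary like the others. Scaling on the 7 reference genes that were measured gave 52 member genes, 89 member probe sets and 25 partners higher and 3, 8 and 4 lower. It turned Cdh1 to 0.28, Cdh2 to 0.13, Cdh22 to 0.0091, Cldn5 to 0.12, Epcam to 0.12, Ocln to 0.27 and Tjp1 to 0.30, since it adds the same amount to every change. Scaling on 5 of them, chosen after the data were seen, turned Tjp1 to 0.011. Centring on the median turned Cdh11 to -0.0012 and Gjb2 to -0.042. The mean over a gene's probe sets turned Cdh5 to -0.10, Epcam to 0.079 and Ocln to 0.10. Leaving out 1 array also turned signs in dim genes, with ranges of -0.12 to 0.24 for Cdh11 (turned without vorinostat 1), -0.14 to 0.27 for Cdh5 and -0.19 to 0.23 for Gjb2 (both turned without vorinostat 2 and without DMSO 1). Of the genes that turned, Cdh22 alone was called with all arrays as deposited. Epcam passed with an intensity trend (-0.25), with dim probe sets dropped (-0.25) and with median centring (-0.31), and Cldn5 with median centring (-0.31) and with the mean over probe sets (-0.25). Arrays with the same replicate number did not deviate together (r = -0.06 over 45037 probe sets), and nothing in the labels pairs them. With the replicate number as a block, 10 member genes were higher and 6 lower, 14 and 12 probe sets, and 12 and 7 partners, against 33% of all genes called, and Cdh22, Cldn7 and Jup no longer passed among the named genes. The near-background limit decides which changes have only a bound.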
